A study of Caenorhabditis elegans with 2 samples.

Results

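Chromatin immunoprecipitation with sequencing (ChIP-seq) of the tagged homeodomain protein IRX-1 was examined at 10 genes of GABA motor neuron identity and synapse remodelling in Caenorhabditis elegans. The 10 genes were chosen by name, as genes of the DD and VD motor neurons, out of 19973 protein-coding genes. They are irx-1, unc-55, unc-30, unc-8, oig-1, acr-12, unc-25, unc-47, snf-11 and unc-49. All 10 have an entry in the Ensembl annotation of WBcel235, the assembly that ce11 names, and all 10 were kept whatever their values.

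The series is 1 group of 2 biological replicates. The animals are hermaphrodite L1 larvae of strain OP536, harvested 6 hours after a starvation step that followed bleaching had synchronized them. Both replicates carry the mutation unc-119(tm4063) on chromosome III and the insertion wgIs536, a transgene of IRX-1 with GFP and FLAG at its C-terminal end, and the pull-down used an antibody against GFP. No untagged or irx-1 mutant group was analysed here, so every comparison is between genes or regions and no difference between conditions was tested. The tagged animals carry extra irx-1 sequence, and reads from the transgene and from the gene at its own place cannot be told apart.

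DD and VD neurons are the GABAergic motor neurons of the ventral cord. DD neurons are born in the embryo, first send their output to ventral muscle, and move it to dorsal muscle at the end of the L1 stage. VD neurons arise after hatching and do not remodel, because the nuclear receptor UNC-55 blocks the programme in them. Earlier genetic work placed irx-1 below this block, with IRX-1 promoting expression of the channel gene unc-8 and opposing oig-1. These neurons are few among the cells of a whole larva. In whole animals, binding in fewer cells and weaker binding in each cell cannot be told apart.

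A peak list gives, for each region, a start, an end, a summit and a score by the authors' caller, with no stated formula. Here a locus runs from 5000 bp upstream of a gene's annotated start to its end. The promoter window is 1000 bp upstream to 200 bp downstream of the start, the distal part lies further upstream, and the rest is intron or exon. The authors' optimal list holds 2445 regions that passed their reproducibility threshold, and its lowest score is 81.4. The permissive lists also hold background, with 28191 regions for the pooled alignments, 30000 for replicate 1 and 24949 for replicate 2. Scores differ in scale between lists and are read only within a list, as ranks where lists are set side by side. The depth of the libraries is unknown.

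Of the 10 genes, only irx-1 had an optimal summit in its locus. The other 9 had 0, which allows a share of up to 33.3%, whereas 19.7% of all protein-coding genes had one. In the promoter window the count was likewise 1 of 10, irx-1, beside 9.60% of all genes. The 9 other loci span 92.1 kb, where the genome-wide density of optimal regions would place 2.25. The limit of 33.3% lies above the background share, so with 9 genes a lower share than in the genome was not detectable. That limit is 3 divided by the 9 genes. It takes the genes as independent draws, which genes chosen by name are not.

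Regions below the threshold were present at most members, mostly with low values of the authors' −log10 q, which reached 3.58 in the pooled list. Outside irx-1 this value was 2.07 at the distal acr-12 region and 1.28 at the unc-49 region 357 bp upstream. At every other pooled region outside irx-1 it was at most 0.84. A pooled summit lay in 9 of 10 loci, beside 75.6% of all genes, and in the promoter window of 6 of 10, beside 38.1%. Among the top 10000 pooled regions the locus count was 4 of 10, beside 46.9% of all genes, which is near that share. Both replicate lists had a summit in 9 of 10 loci, beside 66.9% of all genes. Where a region of each list had to overlap, the count was 5 of 10, beside 55.5%. In the top 10000 regions of each list, with no overlap required, it was 5 of 10, beside 36.6%. The gene without a pooled summit was unc-47, and the gene without a replicate summit was oig-1. Member loci are longer than most, with a median of 9.70 kb against 7.03 kb for all genes, so counts were also taken per length. The 9 loci other than irx-1 held 0.337 pooled regions per kb, against 0.275 per kb over all gene loci. The same loci held 0.250 per kb against 0.294 in replicate 1 and 0.271 per kb against 0.246 in replicate 2, so the replicate lists differed in direction.

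**Figure D1:**
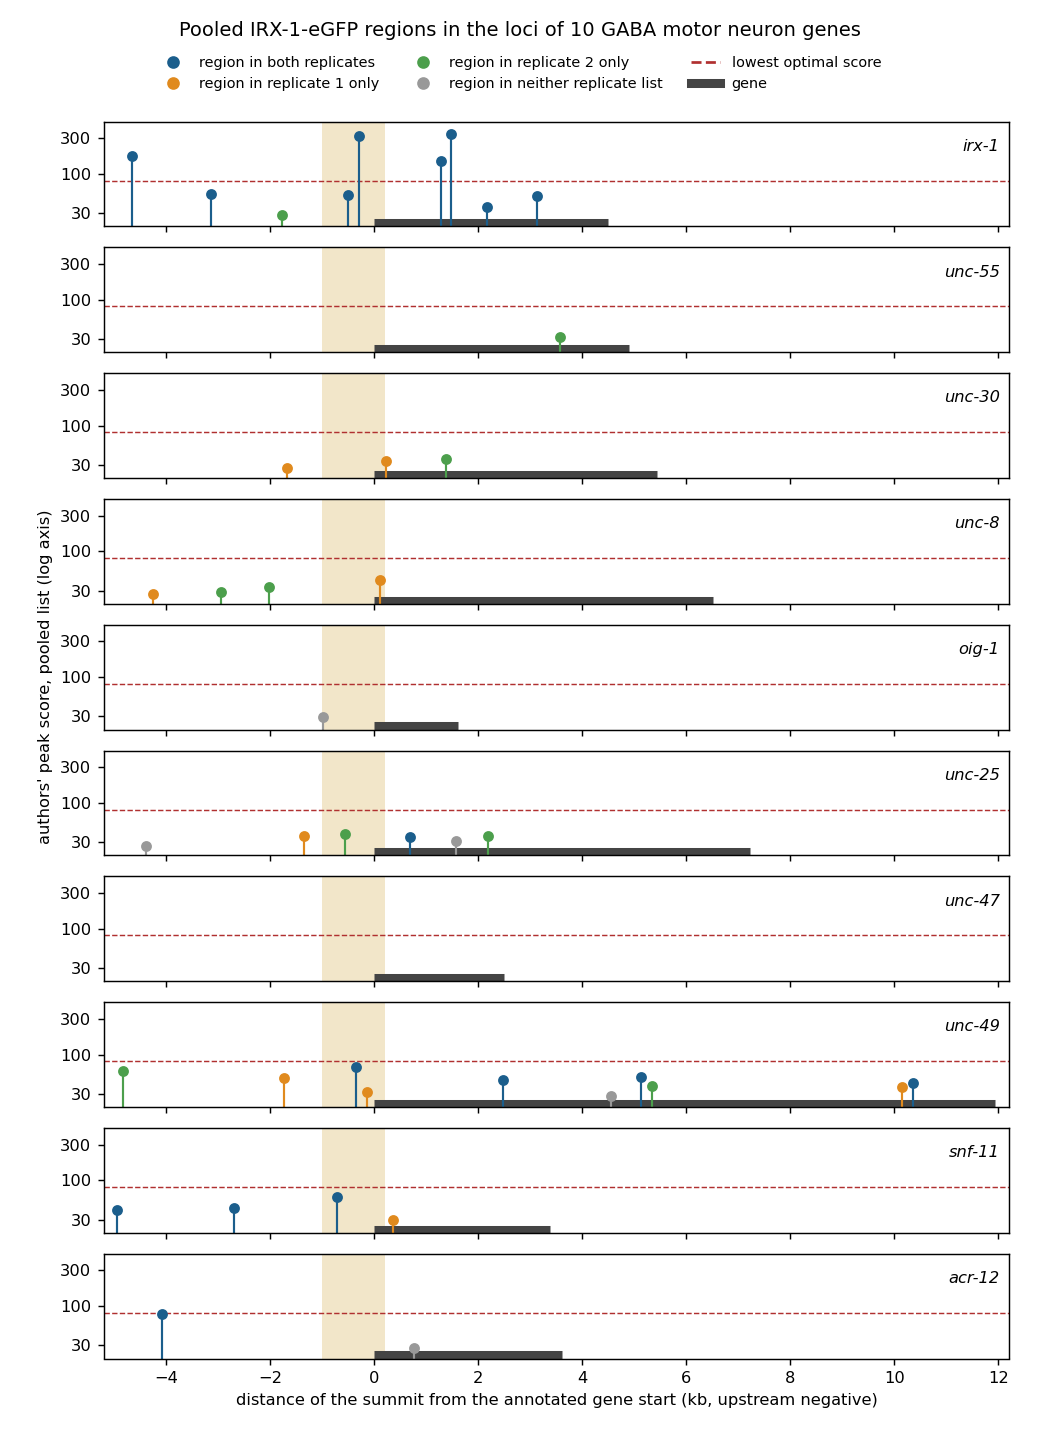
Pooled regions in the 10 member loci, by distance of the summit from the gene start in kb (horizontal) and the authors' peak score (vertical, log axis). Colour gives the replicate lists that hold the summit, the pale band is the promoter window and the dashed line is the lowest optimal score of 81.4. Stems cross the dashed line at irx-1 only, 4 of them, while the acr-12 region at 79.6 ends just under it and unc-47 has no stem.

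Sequences are shown at the highest summit of 4 loci, the 3 loci with the highest such score after irx-1 and oig-1, the locus with the lowest. Each is 201 bases of WBcel235, centred on the summit and written 5′ to 3′ on the strand of the gene. Capitals mark any match, on either strand, to ACATGT (the Iroquois core known from mouse), TAATCC (the site of UNC-30 and related Pitx factors), AGGTCA (the core site of nuclear receptors) or GAGAGA. The windows of acr-12, unc-49 and snf-11 hold no match. The oig-1 window holds TAATCC, and GAGAGA on the opposite strand.
acr-12, chrX:13528668-13528868, plus strand: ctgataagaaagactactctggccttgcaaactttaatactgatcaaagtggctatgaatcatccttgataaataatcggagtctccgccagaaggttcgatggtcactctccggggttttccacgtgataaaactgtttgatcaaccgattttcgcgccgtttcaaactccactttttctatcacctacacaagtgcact
unc-49, chrIII:10520305-10520505, plus strand: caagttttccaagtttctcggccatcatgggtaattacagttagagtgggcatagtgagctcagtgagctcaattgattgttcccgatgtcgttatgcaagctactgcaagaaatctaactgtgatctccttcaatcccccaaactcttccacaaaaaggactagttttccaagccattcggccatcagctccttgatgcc
snf-11, chrV:11309067-11309267, minus strand: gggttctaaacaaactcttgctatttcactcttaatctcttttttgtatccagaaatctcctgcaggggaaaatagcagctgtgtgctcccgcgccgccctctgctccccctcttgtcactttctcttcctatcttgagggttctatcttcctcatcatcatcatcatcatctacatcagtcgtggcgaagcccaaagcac
oig-1, chrIII:6526538-6526738, minus strand: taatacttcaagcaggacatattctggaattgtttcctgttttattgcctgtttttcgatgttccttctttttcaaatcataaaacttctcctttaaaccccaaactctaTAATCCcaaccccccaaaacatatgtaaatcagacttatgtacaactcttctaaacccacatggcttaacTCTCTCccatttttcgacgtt

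The transcription factor genes were irx-1 itself, unc-55 and unc-30. The irx-1 gene (WBGene00007984, chrI:9536465-9540966, minus strand) held 9 pooled regions, 4 of them optimal. The highest of the 4 was not at the promoter but in an intron, 1477 bp downstream of the start (chrI:9539284-9539693, pooled score 343.1). Its pooled rank was 244, and it stood at rank 192 of the replicate 1 list and 302 of the replicate 2 list. The promoter summit, 301 bp upstream, scored 321.7 in the pooled list and ranked 307 in replicate 1 and 278 in replicate 2.

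A further optimal intron region of irx-1 (chrI:9539486-9539895, pooled score 147.4) overlaps the strongest one. In replicate 1 it had a region of its own at rank 836, and in replicate 2 its counterpart (chrI:9539522-9539911) ranked 3915, outside the top 2445. The fourth optimal summit lay 4652 bp upstream (pooled score 172.6, rank 960 in replicate 1 and 656 in replicate 2). It falls inside the divergent neighbour swah-1, 885 bp from the start of that gene. Optimal summits occupied the intron part of 2.03% and the distal part of 9.76% of all genes. The starts of the short noncoding RNA genes C36F7.14 and C36F7.10 lie within 200 bp of the strongest intron summit and of the promoter summit.

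Of the 5 pooled irx-1 regions below the threshold, scores ran from 28.1 to 53.8. In all, 8 of the 9 pooled irx-1 summits lay in a region of both replicate lists, and the remaining one only in replicate 2. Among the 8, the summit 502 bp upstream had a replicate 1 region of its own at rank 9755. In replicate 2 it lay only in the region of the stronger promoter summit. The share over all pooled regions below the threshold was 37.6%, and over all optimal regions 99.2%. With 0.947 pooled regions per kb, the irx-1 locus lay at percentile 98.9 of all gene loci.

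The unc-55 gene (WBGene00006790, chrI:7898434-7903334, minus strand) encodes the nuclear receptor that keeps VD neurons from remodelling. Its locus held 1 pooled region, in an intron 3567 bp downstream of the start, with a score of 31.5 and rank 19788. That summit lay in a replicate 2 region of rank 24535 and in no replicate 1 region. The replicate lists also had 1 upstream summit each, 1462 bp upstream in replicate 1 and 964 bp upstream in replicate 2, with ranks 26596 and 19903. The regions around them do not overlap.

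The unc-30 gene (WBGene00006766, chrIV:13118977-13124406, plus strand) encodes the Pitx-type homeodomain factor that gives DD and VD neurons their GABA identity. Its 3 pooled regions scored 26.8, 33.3 and 36.2. They lay 1684 bp upstream, 219 bp downstream in an exon, and 1378 bp downstream in an intron. The first and second were held in replicate 1 only and the third in replicate 2 only, so no region of unc-30 repeated.

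The genes that act at the synapse during remodelling were unc-8, oig-1 and acr-12. The unc-8 gene (WBGene00006748, chrIV:7197153-7203660, plus strand) encodes a DEG/ENaC sodium channel subunit that promotes the removal of ventral presynaptic sites. Its highest pooled region sat at the start, 105 bp downstream, with a score of 41.1 and rank 10230. Replicate 1 held that summit at rank 16646 and replicate 2 had no region there. The 3 distal regions scored 27.3 to 33.7, and each was held in 1 replicate only. Of these, 2 lay inside the upstream neighbour best-16.

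The oig-1 gene (WBGene00003859, chrIII:6524051-6525657, minus strand) encodes an immunoglobulin-domain protein that opposes remodelling. It had a single pooled region, 981 bp upstream, with a score of 29.0 and rank 23686. Neither replicate list had a summit anywhere in the 6.61 kb locus. This was the weakest highest score among the 9 members with a pooled region, at percentile 6.24 of all gene loci that have one.

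The acr-12 gene (WBGene00000051, chrX:13532853-13536459, plus strand) encodes an acetylcholine receptor subunit that marks postsynaptic sites on GABA neurons. It carried the strongest region outside irx-1 (chrX:13528563-13528972), with a pooled score of 79.6. Its rank of 2538 is 93 places below the last optimal region. It ranked 2663 in replicate 1 and 3746 in replicate 2, outside the top 2445 in each. The summit lies 4085 bp upstream of acr-12 and 320 bp upstream of F18H3.4, which is the nearest protein-coding gene start. The other acr-12 region, in an exon, scored 27.9 and appeared in neither replicate list.

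The genes of GABA synthesis and transport were unc-25, unc-47 and snf-11. The unc-25 gene (WBGene00006762, chrIII:12942651-12949883, plus strand) encodes glutamic acid decarboxylase, the enzyme that makes GABA. It had 6 pooled regions, with scores from 27.0 to 39. The highest, 568 bp upstream, lies inside the neighbouring gene epg-3 and was held in replicate 2 only, at rank 16399. Only the intron region 692 bp downstream was held in both replicates, at rank 24530 in replicate 1 and 17361 in replicate 2. A further intron region, 2181 bp downstream, ranked 3761 in replicate 2 and was absent from replicate 1.

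The unc-47 gene (WBGene00006783, chrIII:10183762-10186260, minus strand) encodes the vesicular GABA transporter. It was the only member with no pooled summit in its locus. Replicate 1 had 1 summit, 1955 bp upstream at rank 20196, and replicate 2 had 1, 583 bp upstream at rank 21570.

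The snf-11 gene (WBGene00004910, chrV:11305070-11308446, minus strand) encodes the plasma membrane GABA transporter. Of its 4 pooled regions, 3 were held in both replicates, a count that irx-1 with 8 and unc-49 with 4 exceeded. The promoter region, 721 bp upstream, scored 60.5, with pooled rank 4070 and ranks 7095 and 3040 in replicates 1 and 2. The starts of 2 noncoding RNA genes, T03F7.10 and T03F7.15, lie within 200 bp of that summit. The distal regions, 2703 and 4942 bp upstream, scored 43.1 and 39.6 and lie nearer to the start of T03F7.7.

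The unc-49 gene (WBGene00006784, chrIII:10520762-10532705, plus strand) encodes the GABA-A receptor of body muscle, the postsynaptic partner of these neurons. Its locus is the longest, at 16.9 kb, and held 10 pooled regions, which is 0.590 per kb and percentile 90.0 of all gene loci. The strongest lay 357 bp upstream in intergenic sequence and scored 69.0. Its pooled rank was 3213, with ranks 4997 and 3126 in replicates 1 and 2. The distal region 4836 bp upstream, inside sly-1, scored 60.6 and ranked 2602 in replicate 2, but replicate 1 had no region over it. In all, 4 of the 10 summits were held in both replicates, and 3 of these lay in introns. Of these, the summit 5130 bp downstream lay at the edge of its replicate 2 region. The summit of that region was 5311 bp downstream, nearer to the neighbouring pooled summit at 5337 bp.

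**Figure D2:**
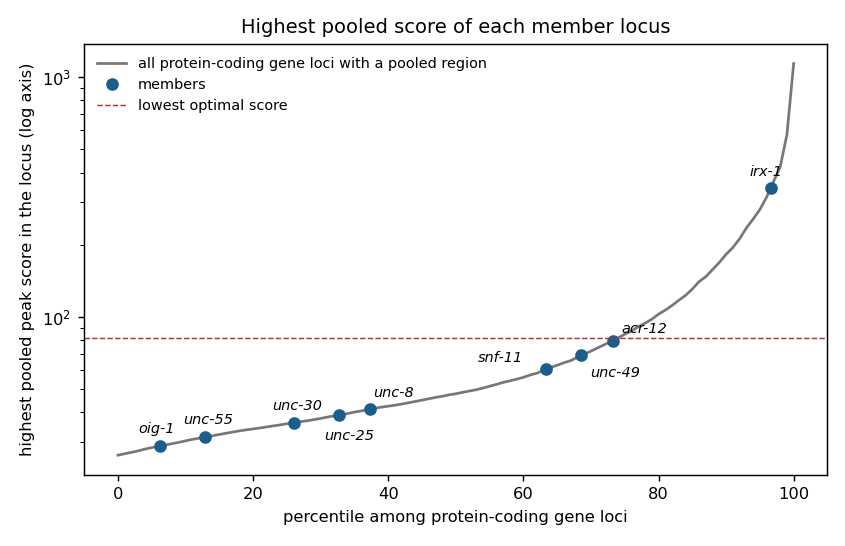
Highest pooled peak score in each member locus (vertical, log axis) against its percentile among protein-coding gene loci with a pooled region (horizontal). The line gives all such loci and the dashed line the lowest optimal score. Members run from oig-1 at 29.0 to irx-1 at 343.1, and 5 of the 9 points lie below the median of all loci, 47.8.

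Set side by side, the highest pooled scores fell into a top value at irx-1, a middle range at acr-12, unc-49 and snf-11, and low values at the others. The highest score was 343.1 at irx-1, then 79.6 at acr-12, 69.0 at unc-49 and 60.5 at snf-11. It was 41.1 at unc-8, 39 at unc-25, 36.2 at unc-30, 31.5 at unc-55 and 29.0 at oig-1. The acr-12 value belongs to a summit 320 bp from the start of F18H3.4. With the upstream part ended at the nearest protein-coding gene, acr-12 kept only its exon region, at 27.9. The median over all protein-coding gene loci with a region was 47.8, so 4 members lay above it and 5 below. No error can be attached to a pooled score, and neighbours in this order were not tested against each other.

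Outside irx-1 the member loci held 31 pooled regions, all of them 410 bp wide. Of these, 6 lay in a promoter window, 11 in the distal part, 11 in introns and 3 in exons. The promoter window thus held 19.4% of the members' regions and 20.6% of those of all gene loci. These parts use only the outermost start of each gene. Some intron or exon summits lay near another annotated transcript start of their own gene. Among them were unc-49 summits 524 and 317 bp from such a start, unc-30 summits at 106 and 817 bp, and the acr-12 exon summit at 43 bp. Of the 31 summits, 10 lay nearer to the start of another protein-coding gene, 7 of these in the distal part. Both replicates held 9 of the 31, replicate 1 alone 9, replicate 2 alone 8 and neither 5. The 9 make 29.0%, beside 37.6% of all pooled regions below the threshold. Those 9 summits belong to unc-49, snf-11, acr-12 and unc-25. They include the unc-49 summit 5130 bp downstream, which replicate 2 held only at the edge of a region.

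**Figure D3:**
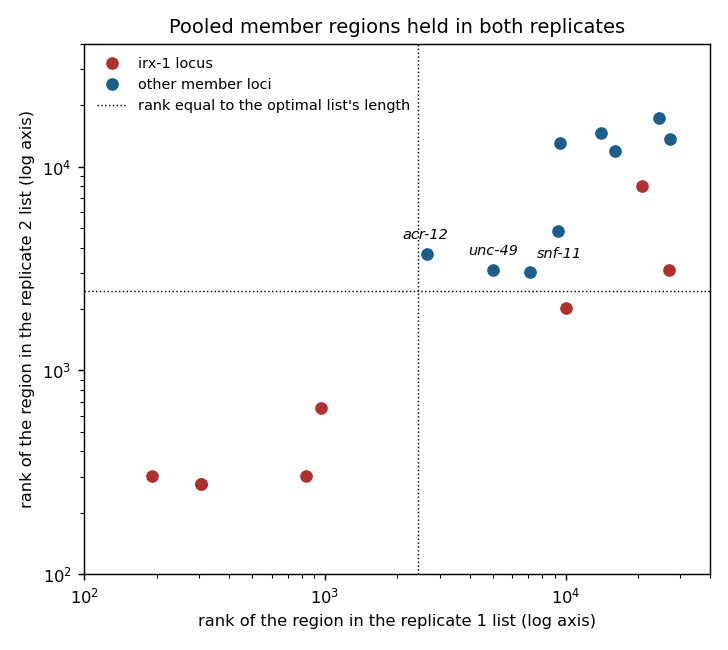
Rank in replicate 1 (horizontal) against rank in replicate 2 (vertical) of the highest-scoring replicate region that holds each pooled member summit, for summits held in both, on log axes where low ranks are strong. Dotted lines mark rank 2445. All points inside both lines belong to irx-1, where 2 pooled summits 502 and 301 bp upstream fall in the same replicate regions and share 1 point. The irx-1 intron summit 1275 bp downstream is drawn at replicate 2 rank 302, that of the stronger intron region. Its own counterpart in replicate 2 ranked 3915.

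Sequence motifs were then counted, since UNC-30 is known to act through TAATCC at unc-25 and unc-47. The promoter windows of 8 of the 10 members held TAATCC on either strand, beside 33.0% of all protein-coding genes. Those 8 include unc-25 and unc-47, where the site was already known. GAGAGA was also in 8 of the 10 windows, beside 50.9% of all genes. ACATGT was in 3 of 10, beside 26.9%, and AGGTCA in 3 of 10, beside 26.7%. The TAATCC matches nearest the starts of unc-25 and unc-47 are printed here on the strand of the gene. Flanking bases are shown and the motif is in capitals.
unc-25, chrIII:12942524-12942569: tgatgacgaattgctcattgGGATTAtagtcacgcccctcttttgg
unc-25, chrIII:12942574-12942619: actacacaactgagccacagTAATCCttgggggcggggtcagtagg
unc-47, chrIII:10186424-10186469: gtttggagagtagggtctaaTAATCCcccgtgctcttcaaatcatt

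None of these 3 matches lay within 100 bp of a pooled summit. The unc-25 matches, centred 104 and 54 bp upstream of the start, were 464 and 514 bp from the nearest pooled summit. The unc-47 match, 187 bp upstream, was 7394 bp from one. A further unc-25 match, 610 bp upstream, was 42 bp from the pooled summit of score 39. Within 100 bp of a pooled summit, TAATCC occurred at 7 of the 31 summits of members other than irx-1, in 6 loci. These were unc-55, unc-30, unc-8, oig-1, unc-25 and unc-49. Of the 7 summits, only the unc-49 summit 2480 bp downstream lay in a region of both replicate lists. The oig-1 summit lay in neither list and each of the others in 1 list. Their −log10 q was at most 0.27. TAATCC was found at 6.35% of all pooled summits below the threshold and at 3.56% of optimal summits. The ACATGT core occurred at 2 of the 31, in unc-55 and unc-30, and at 0 of the 9 irx-1 summits. Over all summits it was found at 5.16% below the threshold and 6.01% in the optimal list. GAGAGA occurred at 7 of the 31 and 2 of the 9, beside 13.9% and 39.7%. AGGTCA occurred at 1 of the 31 and 0 of the 9, beside 5.23% and 5.32%. The summit windows had a mean GC content of 37.8% at the 31 summits and 39% at the 9, against 34.8% below the threshold and 42.5% in the optimal list. A match describes the sequence and does not show that a factor binds there.

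Other genes of the pathway were read the same way. Of 22 other genes reported in DD remodelling or GABA synapse assembly, 12 had an optimal summit in the locus and 7 in the promoter window, beside 19.7% and 9.60% of all genes. Their loci span 273.4 kb and held 25 optimal regions, 8 of them at lin-14, where the genome-wide density would place 6.67. The median highest pooled score of the 22 was 87.7, and that of all gene loci 47.8. The list was put together with earlier results of these data known, so no test was made on it.

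The promoter summits in this list lay at genes for a kinase, factors that time larval development, calcium signalling, actin and guidance. The kinase gene cdk-5 had the highest score of the list, 409.1, with a summit 77 bp upstream that lies inside kel-3. The myelin regulatory factor gene myrf-1, which acts in DD synaptic rewiring, scored 172.1 with a summit 339 bp upstream. Its partner myrf-2 scored 205.2 at an intron summit. The calcineurin subunit gene cnb-1 scored 141.6, 343 bp upstream. The catalytic subunit gene tax-6 had 3 optimal summits, 1 of them in the promoter window, and a highest score of 110.7.

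The netrin receptor gene unc-40 scored 108.3, 246 bp upstream. The gene arx-5, for an Arp2/3 subunit, scored 87.7, 421 bp upstream, with rank 1448 in replicate 1 but 15103 in replicate 2. The heterochronic gene lin-14, which sets the time of DD remodelling, had 8 optimal summits, 7 of them in introns, with a highest score of 151.2. The Hunchback-type gene hbl-1, a target of UNC-55, scored 90.7 at a summit 1097 bp upstream and ranked 2564 in replicate 1 and 1882 in replicate 2. The highest optimal summits of cdka-1, tba-1 and dlk-1 were also distal. Those of cdka-1 (109.3) and tba-1 (225.5) lay nearer to T23F11.2 and cox-5B. That of dlk-1 scored 82.1, just above the lowest optimal score of 81.4. It ranked 3051 in replicate 1 and 2747 in replicate 2, outside the top 2445 in each. In all, the highest summit was nearer to the start of another gene for 3 of the 12, cdka-1, tba-1 and myrf-2.

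**Figure D4:**
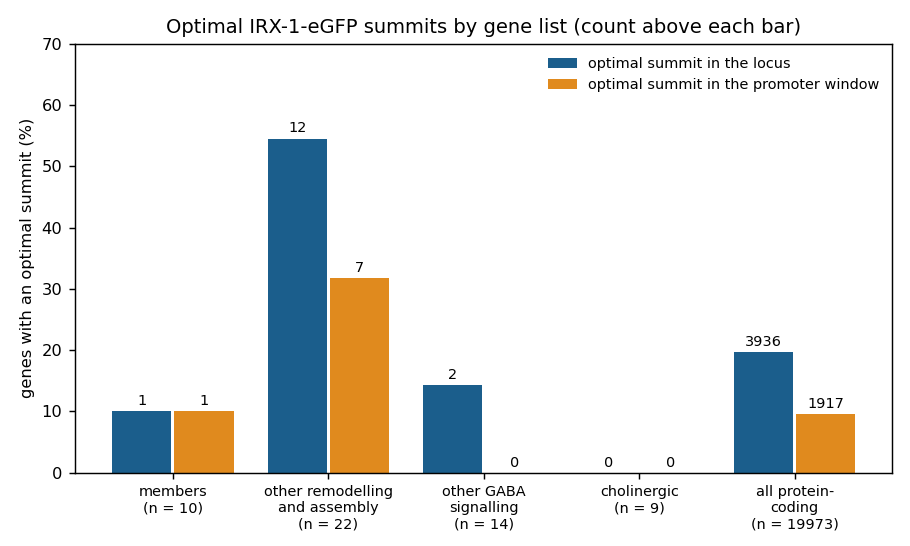
Share of genes with an optimal summit in the locus (blue) or in the promoter window (orange), in percent, with the count above each bar, for the 10 members, 3 other gene lists and all 19973 protein-coding genes. The members have 1 gene in either bar, the other remodelling and assembly genes 12 and 7, and the cholinergic list 0 and 0.

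Other GABA signalling and identity genes had 2 of 14 with an optimal summit in the locus and 0 in the promoter window, beside 19.7% and 9.60% of all genes. The 2 genes were elt-1, a GATA factor gene, with an intron summit 728 bp downstream (114.0), and gta-1, for GABA transaminase. The gta-1 summit, 4199 bp upstream (91.9), lies 219 bp from rack-1. The vesicular sorting gene unc-46, lgc-35, lim-6 and ttr-39 had no pooled region. Cholinergic motor neuron genes had 0 of 9 in the locus, which allows up to 33.3%, a limit above the 19.7% of all genes. The highest scores without an optimal summit in these lists were 63.1 at unc-17, 62.8 at dve-1 and 59.5 at ced-4. The first is the vesicular acetylcholine transporter gene, the second a homeodomain gene that acts in DD remodelling and the third a cell death gene. The ced-4 summit, 2116 bp upstream, lies 298 bp from the start of F26A1.1. It ranked 3086 in replicate 1 and 10023 in replicate 2.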

How the data were processed

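The deposited files are peak lists in narrowPeak format on ce11, derived by the authors from alignments and a control file, per notes deposited with the samples. Each region has a score and a −log10 q value, both the authors' and deposited as such, and a summit offset. No source used here names the aligner, the caller, the thresholds or their versions. The ce10 lists were not used here. Read depth is unknown, so no interval that needs it is given.

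Summits were assigned to genes of Ensembl release 115 (WBcel235), and sequence was read from the RefSeq genome of that assembly, with Python 3.11.15, numpy 2.4.6 and pandas 2.3.3. Gene starts are the outermost annotated start. Coordinates are 1-based. A pooled summit counts as held in a replicate when a replicate region contains it. The assignment was tested on simulated summits.

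The members, lists and rules were chosen with earlier results of these data known, so counts stand beside those of all protein-coding genes and no test was run. All 10 members are named, with each gene of the other lists that has an optimal summit and the 3 highest of the rest. Alternatives covered windows, overlap by 1 bp, list thresholds and each replicate alone.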

Additional observations from a re-analysis of the deposited data

How the results depend on the processing

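Of 28 alternative values of the 4 counts of members, 23 stayed within 1.5 times the reported count. The 1 member with an optimal summit, in the locus or the promoter window, was irx-1 under every other window, overlap and score threshold tried. Leaving out either replicate gave 1 to 1, with the top 2445 regions of the other replicate's list in place of the optimal list. Without irx-1, an alternative chosen after seeing the data, both counts were 0. Among the top 10000 pooled regions the members with a summit fell to 4 (irx-1, unc-49, snf-11 and acr-12) from a count of 9, beside 46.9% of all genes. Leaving out either replicate, with the other replicate's list in place of the pooled list, gave 9 to 9, with unc-47 in and oig-1 out. Members with a summit in both replicate lists numbered 9. They numbered 5 in the top 10000 regions of each list, beside 36.6% of all genes, and 5 when the regions had to overlap, beside 55.5%. Those 5 were irx-1, unc-25, unc-49, snf-11 and acr-12 each time. In the top 10000, unc-25 counted through regions that do not overlap. These were 1352 bp upstream in replicate 1 (rank 7298) and 2264 bp downstream in replicate 2 (rank 3761). The unc-25 regions that held a pooled summit in both lists ranked 24530 and 17361. With the upstream part ended at the nearest protein-coding gene the count was 7, beside 46.1%, and unc-8 and acr-12 dropped out. Ranking by −log10 q changed none of the 9 highest scores. This alternative could not have changed them, because −log10 q followed the score in the pooled member regions and ties were ordered by score. Within the promoter window alone that of irx-1 was 321.7, and unc-55, unc-30 and acr-12 gave no value. No paired analysis was possible because all samples belong to a single group. The depth is unknown, so weak binding at these genes cannot be separated from none.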
